A study of Mus musculus with 16 samples.

Results

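The genes described here encode secreted lipocalins and odorant-binding proteins of the mouse nose. They were chosen by symbol from a list of 10, of which 8 stood in both the count and the RPKM (read counts scaled to gene length and library size) tables, among 24340 genes listed in both. These 8 were Obp2a, Obp2b, Obp1a, Lcn3, Lcn4, Lcn11, Mup4 and Mup5. The other two symbols, Lcn13 and Lcn14, were not listed, and RefSeq gives them as older names of Obp2a and Obp2b. RNA was sequenced from the vomeronasal organ (VNO), the sense organ at the base of the nasal septum that detects pheromones. All mice were of Hsd:ICR background, an outbred strain, were 12 weeks old and came from generation 88 of a breeding experiment. The 4 High Runner (HR) lines, numbered 3, 6, 7 and 8, were bred for high voluntary wheel running, and the 4 Control lines, numbered 1, 2, 4 and 5, were bred without that selection. Each of the 16 libraries held the pooled VNOs of 3 mice of 1 line and 1 sex, so that each group of linetype and sex had 4 libraries, and a line was represented by 1 male and 1 female library. Reads on genes ranged from 15998552 to 70875276 per library (median 37366329).

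Lipocalins are small secreted proteins that fold into a barrel and carry hydrophobic molecules in its cavity. In the nose, glands of the nasal septum and of the VNO release odorant-binding proteins into the mucus that covers the sensory epithelium, where they are held to carry odorants and pheromones. Lcn3 and Lcn4 are also known as vomeronasal secretory proteins. Major urinary proteins (Mups) are lipocalins best known from liver and urine, and some of them are made in nasal tissue.

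The members lie in 3 places on the GRCm38 genome (GENCODE M21), all are protein-coding, and none overlaps another annotated gene. Obp2a (chr2:25700043-25703326), Obp2b (chr2:25737009-25740097), Lcn3 (chr2:25765569-25768099) and Lcn11 (chr2:25777017-25780279) follow each other on the plus strand within 80.2 kb. Lcn4 (chr2:26667674-26671282, minus strand) lies 887 kb beyond Lcn11. Mup4 (chr4:59956804-59960710) and Mup5 (chr4:61831319-61835233) lie on the minus strand, 1871 kb apart, and Obp1a (chrX:78085505-78091374, minus strand) is the only member on the X chromosome. Reads that aligned to more than 1 place were not counted in this study. Of all 75-base words of each transcript, the read length used, 100% were found in no other gene for Lcn3, Lcn4, Lcn11 and Obp1a, 99.6% for Mup4, 95.4% for Mup5, 91.6% for Obp2a and 91.5% for Obp2b. Obp2a and Obp2b shared 56 words with each other, and Mup5 shared words with other Mup genes, so their counts are those of the remaining bases.

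Sequences upstream of 5 members are shown because 4 of them (Obp2a, Obp2b, Lcn3 and Lcn4) moved together over the libraries while Obp1a followed another pattern. They were taken from RefSeq (GRCm38.p6) and run 5′ to 3′ on the strand of the gene up to the base before the RefSeq start, with the letters TATAAA in capitals. The Obp2a sequence stops 31 bases earlier, at the base before the GENCODE start, since that annotation starts the gene there.
Obp2a, chr2:25699824-25700042, plus strand: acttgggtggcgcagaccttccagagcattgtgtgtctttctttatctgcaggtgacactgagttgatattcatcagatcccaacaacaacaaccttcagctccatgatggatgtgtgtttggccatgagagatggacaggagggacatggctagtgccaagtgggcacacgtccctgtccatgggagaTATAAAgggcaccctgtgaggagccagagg
Obp2b, chr2:25736757-25737006, plus strand: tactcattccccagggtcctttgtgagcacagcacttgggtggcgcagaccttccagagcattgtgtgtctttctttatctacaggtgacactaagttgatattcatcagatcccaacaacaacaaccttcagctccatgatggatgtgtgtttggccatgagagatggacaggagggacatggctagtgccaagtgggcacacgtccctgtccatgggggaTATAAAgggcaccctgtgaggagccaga
Lcn3, chr2:25765283-25765532, plus strand: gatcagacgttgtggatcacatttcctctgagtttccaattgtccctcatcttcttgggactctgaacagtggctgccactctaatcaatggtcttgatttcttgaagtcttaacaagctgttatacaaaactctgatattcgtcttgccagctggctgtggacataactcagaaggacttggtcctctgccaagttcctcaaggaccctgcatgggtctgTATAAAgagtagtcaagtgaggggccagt
Lcn4, chr2:26671283-26671532, minus strand: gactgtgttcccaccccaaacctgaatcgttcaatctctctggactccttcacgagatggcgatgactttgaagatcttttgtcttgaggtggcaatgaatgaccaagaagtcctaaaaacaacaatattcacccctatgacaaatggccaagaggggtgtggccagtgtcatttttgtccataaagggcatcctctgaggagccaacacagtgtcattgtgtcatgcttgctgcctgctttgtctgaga
Obp1a, chrX:78091375-78091624, minus strand: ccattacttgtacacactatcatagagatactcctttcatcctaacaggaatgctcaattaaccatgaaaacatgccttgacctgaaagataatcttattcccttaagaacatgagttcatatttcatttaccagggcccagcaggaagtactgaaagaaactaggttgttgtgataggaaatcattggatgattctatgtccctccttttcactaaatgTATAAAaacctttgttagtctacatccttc
The Obp2a and Obp2b sequences were 98.6% identical over the 217 aligned bases they share, whereas those of Obp2a and Lcn3 were 57.6% identical and those of Obp2a and Lcn4 56.3%. Members of differing profile gave similar values, such as 59.1% for Obp2a and Obp1a, 53.0% for Obp2a and Mup4 and 60.6% for Lcn11 and Mup4. The lower values therefore show no particular likeness. The letters TATAAA began 30 bases before the RefSeq start in Obp1a, 29 in Lcn3 and 28 in Obp2b, and 30 bases before the GENCODE start in Obp2a, and were not in the Lcn4 sequence. The Lcn4 sequence did hold ataaagggcatcctctgaggagcca, which differs in few letters from ATAAAgggcaccctgtgaggagcca in Obp2a. A RefSeq promoter was at hand for 7 members, and 5 of these (Obp2a, Obp2b, Lcn3, Obp1a and Mup4) held TATAAA on either strand in the 250 bases before the RefSeq start. Of the 32851 RefSeq promoters, 12.4% held it in the same window. The nearly identical Obp2a and Obp2b sequences are counted separately among the 5, so the members are not independent here.

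The 8 genes took a large and very uneven part of the reads. Their summed share of gene reads ran from 0.149% in the HR line 8 female library (95% Wilson interval 0.148 to 0.150) to 15.6% in the Control line 5 male library (15.62 to 15.65), a range of 105-fold. These intervals cover counting error only, and are far narrower than the differences between libraries. In Control males the share was 0.940% in line 1, 2.06% in line 2, 8.64% in line 4 and 15.6% in line 5. Control females had 4.41%, 1.70%, 2.76% and 7.58% in the same lines. In HR males it was 14.4% in line 3, 8.84% in line 6, 1.15% in line 7 and 1.10% in line 8, and HR females had 5.44%, 12.1%, 1.15% and 0.149%. Lines 3, 5 and 6 were thus high in both sexes and lines 2, 7 and 8 low in both, while line 1 was high in the female library alone and line 4 in the male library alone. The HR and Control libraries overlapped almost fully, with means of 5.54% ± 5.60 (SD, n = 8 libraries of 4 lines) and 5.46% ± 4.97 (SD, n = 8 libraries of 4 lines). With both libraries of a line averaged, the share ran from 0.624 to 10.5% in HR and from 1.88 to 11.6% in Control lines. In bulk tissue, fewer secreting cells and less RNA per cell cannot be told apart.

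**Figure D1:**
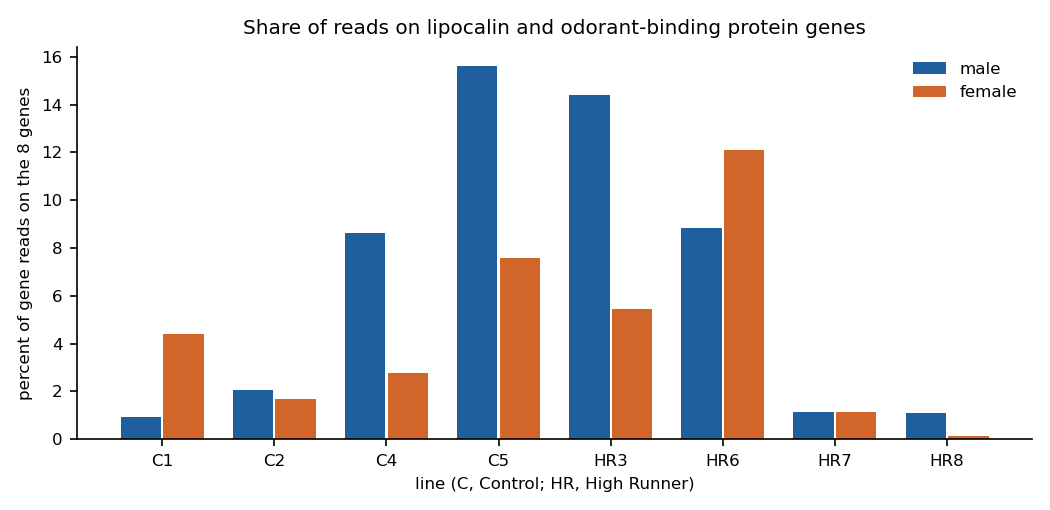
Percent of all gene reads that fell on the 8 genes (y axis) in the male and female library of each line (x axis). Bars are single libraries of 3 pooled mice, from 0.149% (HR line 8 female) to 15.6% (Control line 5 male), and high and low lines occur in both linetypes.

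Obp2a, an odorant-binding protein gene, was the gene with the most reads of all in 12 of 16 libraries, and the gene with the highest RPKM in 15. Levels between libraries are given below in CPM, counts scaled to a common library total with TMM factors. In Control males Obp2a had 3849 CPM in line 1, 8125 in line 2, 36277 in line 4 and 75609 in line 5. Control females had 16788, 5849, 10214 and 30698 CPM in the same lines. In HR males it had 64108 CPM in line 3, 38712 in line 6, 5180 in line 7 and 4266 in line 8, and the HR females had 19592, 48771, 4432 and 508 CPM. The HR line 8 female library was thus the lowest, the Control line 1 male library coming next, and the ranges of the linetypes overlapped.

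Obp2b, the neighbouring odorant-binding protein gene, ran from 404 CPM in the HR line 8 female library to 59770 CPM in the Control line 5 male library. Lcn3 and Lcn4 ran between the same libraries, Lcn3 from 207 to 27620 CPM and Lcn4 from 76.2 to 14962 CPM. These 3 genes followed Obp2a closely in every library. Within a library the ratio of Obp2b to Obp2a counts was 0.621 to 1.10, that of Lcn3 to Obp2a 0.324 to 0.467 and that of Lcn4 to Obp2a 0.150 to 0.235. Each of these ratios therefore varied by no more than 1.78-fold, while Obp2a itself varied 149-fold.

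Obp1a, the odorant-binding protein gene on the X chromosome, showed a different order. In Control males it had 86.6 CPM in line 1, 73.9 in line 2, 67.6 in line 4 and 96.9 in line 5, and Control females had 1907, 659, 107 and 363 CPM. In HR males it had 193 CPM in line 3, 754 in line 6, 10.9 in line 7 and 15.8 in line 8, and the HR females had 274, 5775, 160 and 120 CPM. The 4 Control males lay close together below all 4 Control females, and in every HR line the female library was also the higher. Obp1a differed 527-fold between its highest library (HR line 6 female) and its lowest (HR line 7 male).

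Mup4, a Mup gene of nasal tissue, had 79.9, 61.5, 124 and 101 CPM in the males of Control lines 1, 2, 4 and 5, and 1239, 419, 48.6 and 184 CPM in their females. In HR lines 3, 6, 7 and 8 it had 273, 658, 9.73 and 19.8 CPM in males and 195, 2618, 87.5 and 74.3 CPM in females. Its high libraries were those of Obp1a, the line 6 and line 1 females. The ratio of Mup4 to Obp1a counts varied 4.05-fold over libraries, against 184-fold for Obp1a to Obp2a and 110-fold for Mup4 to Obp2a. The Mup4 to Obp1a ratio separated the sexes, at 0.453 to 0.712 in the female and 0.831 to 1.83 in the male libraries.

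Mup5 had 51.7, 19.8, 51.3 and 81.5 CPM in the males of Control lines 1, 2, 4 and 5, and 5.22, 44.2, 97.7 and 100.2 CPM in their females. In HR lines 3, 6, 7 and 8 it had 184, 686, 8.27 and 13.1 CPM in males and 78.8, 3779, 82.8 and 22.4 CPM in females. Both libraries of line 6 stood above all others. The Control line 1 female library was the lowest for Mup5, although it was the second highest of the 16 for Obp1a and Mup4.

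Lcn11, the lipocalin gene that follows Lcn3 on the chromosome, was far less abundant than its neighbours. It had 23.7, 24.5, 137 and 155 CPM in the males of Control lines 1, 2, 4 and 5, and 248, 83.7, 46.8 and 124 CPM in their females. In HR lines 3, 6, 7 and 8 it had 112, 169, 20.9 and 10.2 CPM in males and 50.5, 695, 40.2 and 14.9 CPM in females. Its lowest library was the HR line 8 male, whereas the other chromosome 2 genes were lowest in the HR line 8 female library. By mean CPM line 8 was the lowest for all 8 members. Lcn11 was highest in the line 6 female library like Obp1a and the Mups, and the ratio of Lcn11 to Obp2a counts varied 16.8-fold.

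**Figure D2:**
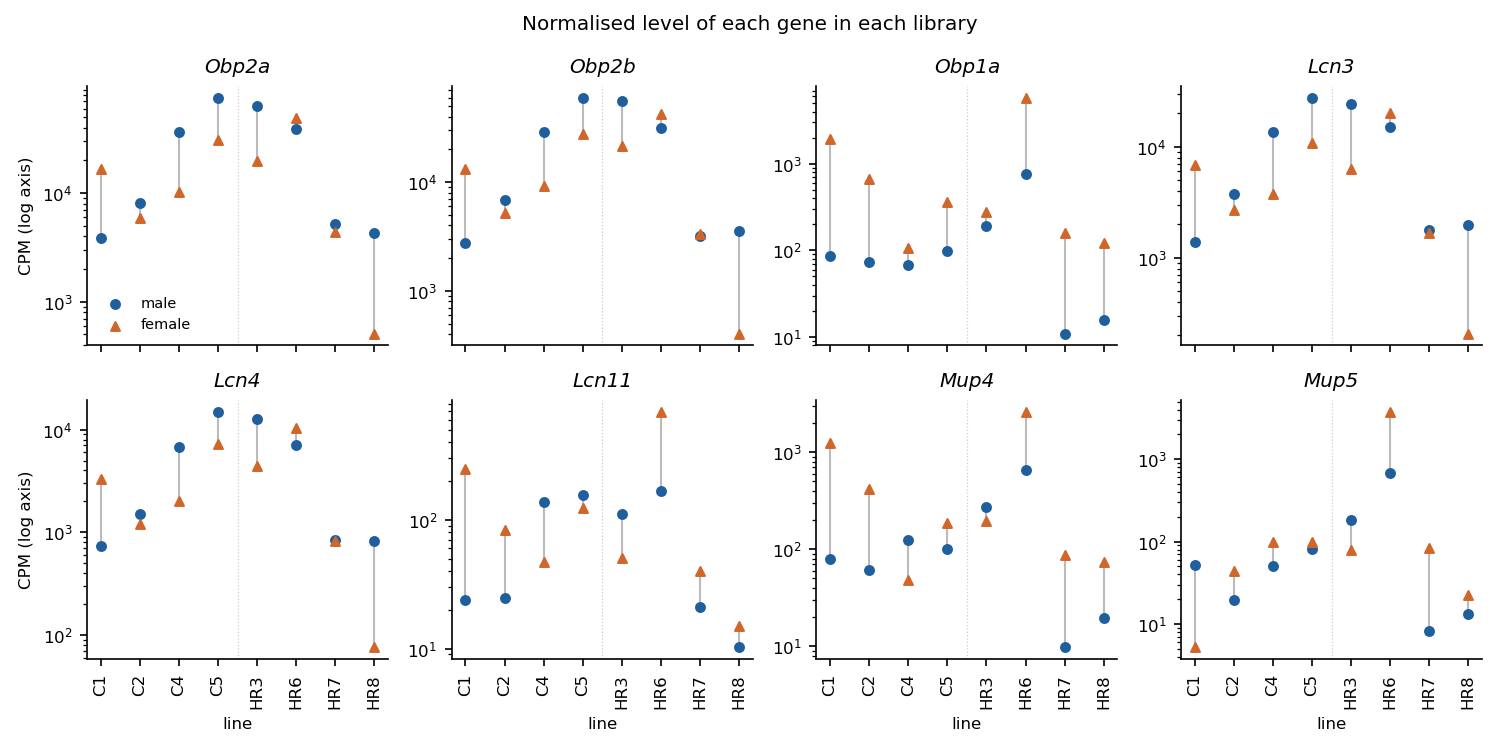
CPM (log axis) of each gene in the male (circle) and female (triangle) library of each line; a grey line joins the libraries of a line, C marks Control and HR High Runner lines. Obp2a, Obp2b, Lcn3 and Lcn4 share 1 profile over lines, Obp1a is higher in the female library of every line, and Mup5 peaks in line 6 at 3779 CPM.

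Per gene length the order of the mean log2 levels was Obp2a, Obp2b, Lcn3, Lcn4, Obp1a, Mup4, Lcn11 and Mup5. In RPKM, Obp2a ranged from 1026 to 143947 (median 27213), Obp2b from 582 to 82406 (median 16588), Lcn3 from 428 to 54155 (median 9991) and Lcn4 from 131 to 24531 (median 4512). Obp1a ranged from 18.5 to 10290 RPKM (median 250.5), Mup4 from 13.5 to 3769 (median 159), Lcn11 from 21.5 to 1551 (median 147) and Mup5 from 7.70 to 5474 (median 92.7). Obp2a exceeded Obp2b, Obp2b exceeded Lcn3 and Lcn3 exceeded Lcn4 in 16 of 16 libraries. Lcn4 exceeded Obp1a in 15, Obp1a exceeded Mup4 in 13 and Mup4 exceeded Lcn11 in 12. Lcn11 and Mup5 did not differ beyond their spread, with Lcn11 the higher in 9 of 16 libraries.

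The spread of these genes was among the widest of the 16507 genes tested. The SD of log2 CPM over the 16 libraries was 1.65 for Lcn11, 1.89 for Lcn3, 1.93 for Obp2a, 1.99 for Obp2b, 2.02 for Lcn4, 2.08 for Mup4, 2.32 for Obp1a and 2.34 for Mup5. The median gene had an SD of 0.232, and 98.99% of genes or more had a smaller SD than any member. For comparison, olfactory marker protein (Omp), a marker of mature sensory neurons, had an SD of 0.277 and the G protein gene Gnao1 0.198.

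Over the 8 line means of log2 CPM, the members formed groups. The 6 pairs among Obp2a, Obp2b, Lcn3 and Lcn4 had Pearson's r of 0.997 to 0.9995 and Spearman's rho of 0.952 to 1 (exact permutation p = 2.48e-05 to 9.92e-05 for r, the first being the smallest that 8 lines allow). Obp1a and Mup4 had r = 0.993 and rho = 1 (exact permutation p = 2.48e-05 for r and 4.96e-05 for rho). Between Obp1a or Mup4 and the chromosome 2 genes Obp2a, Obp2b, Lcn3 and Lcn4, r was 0.628 to 0.679 and rho 0.571 to 0.619 (8 pairs, exact permutation p = 0.0616 to 0.0913 for r). Lcn11 had r of 0.826 to 0.915 with the other members, and Mup5 0.728 to 0.826. Without the 2 lines farthest from the median, r stayed at 0.994 or above within the first group and was 0.987 for Obp1a and Mup4, and it ran from 0.556 to 0.861 for pairs with Lcn11 and from 0.103 to 0.891 for pairs with Mup5. In all, 28 pairs were computed, and 18 had an adjusted p under 0.05 (Benjamini-Hochberg over the pairs). The share among pairs of all genes was not computed, so this count does not set the members apart from other genes. The points of a pair come from the same libraries, so that the spread in depth and in tissue content is shared between them.

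**Figure D3:**
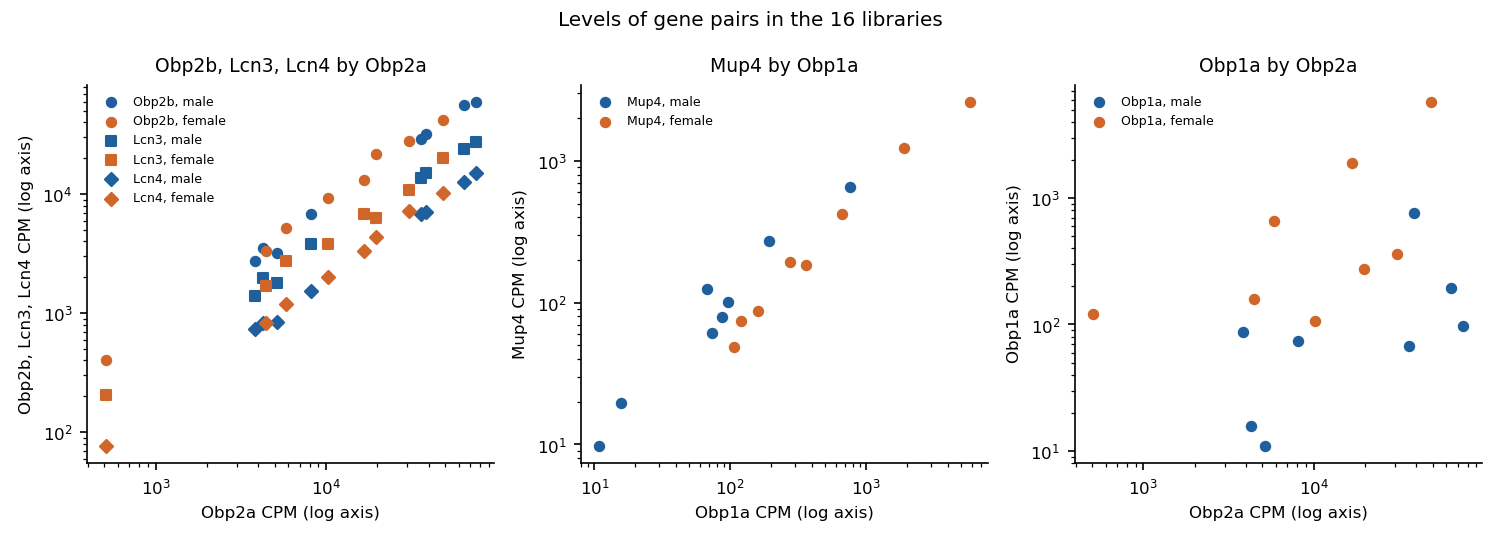
CPM of gene pairs in the 16 libraries (both axes log; blue male, orange female). The points of Obp2b, Lcn3 and Lcn4 each lie along 1 line with Obp2a (left panel). Those of Mup4 rise with Obp1a, the ratio of Mup4 to Obp1a being higher in all male than in all female libraries. The points of Obp1a against Obp2a (right panel) scatter, their ratio varying 184-fold over the libraries.

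HR lines were compared with Control lines for each gene with edgeR, using its quasi-likelihood test in a model that also held sex. None of the 8 members passed an adjusted p of 0.05 (Benjamini-Hochberg over 16507 genes), and all had an adjusted p of 0.9997, where 0.0242% of all genes were called. DESeq2 also called 0 members. The median log2 fold change of HR against Control was 0.20 over the members and 0.003 over all genes. It was 0.03 (SE 0.80) for Obp2a, 0.12 (SE 0.83) for Obp2b, 0.06 (SE 0.79) for Lcn3 and 0.003 (SE 0.83) for Lcn4, each less than its SE. For Obp1a it was 1.32 (SE 0.92), for Mup4 1.02 (SE 0.90) and for Lcn11 0.27 (SE 0.78). Mup5 had a log2 fold change of 3.07 (SE 1.15) and was the 1 member with an unadjusted p under 0.05 (edgeR, unadjusted p = 0.0170), as had 3.3% of all genes. Without line 6 its log2 fold change was 0.21. The model held no term for line, so the male and female library of a line counted as separate samples in these SEs and p-values. For Mup5 the exact permutation test over line means, described next, gave p = 0.571.

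Lines are the replicates of each linetype, so line means were compared as well. With the male and female log2(RPKM + 1) averaged per line, HR minus Control was 1.18 for Mup5 and negative for the other members, from -0.64 (Lcn4) to -0.16 (Mup4). Obp2a averaged 14.28 ± 2.34 (SD, n = 4) in HR and 14.84 ± 1.27 (SD, n = 4) in Control lines on this scale. The SD over HR lines exceeded that over Control lines for all 8 genes. The share of all genes with this order was not computed, and members that share a profile do not count separately. In CPM the SDs over lines lay close for Obp2a, at 22666 in HR and 21022 in Control lines. Those of Mup5 lay far apart, at 1085 and 31.1. Exact two-sided permutation tests of 4 against 4 lines gave p = 0.571 to 0.971, where the smallest possible is 0.0286 and 0.809% of genes had an unadjusted p under 0.05. These 7 negative differences were also negative in a limma-voom fit with line as a random effect, but positive in the edgeR fit. No member had an interaction of sex and linetype (edgeR's quasi-likelihood test, 0 of 8 with an adjusted p under 0.05), and 0% of 16757 genes had one, while 77 genes and no member had an unadjusted p under 0.05. DESeq2 found 0 as well.

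**Figure D4:**
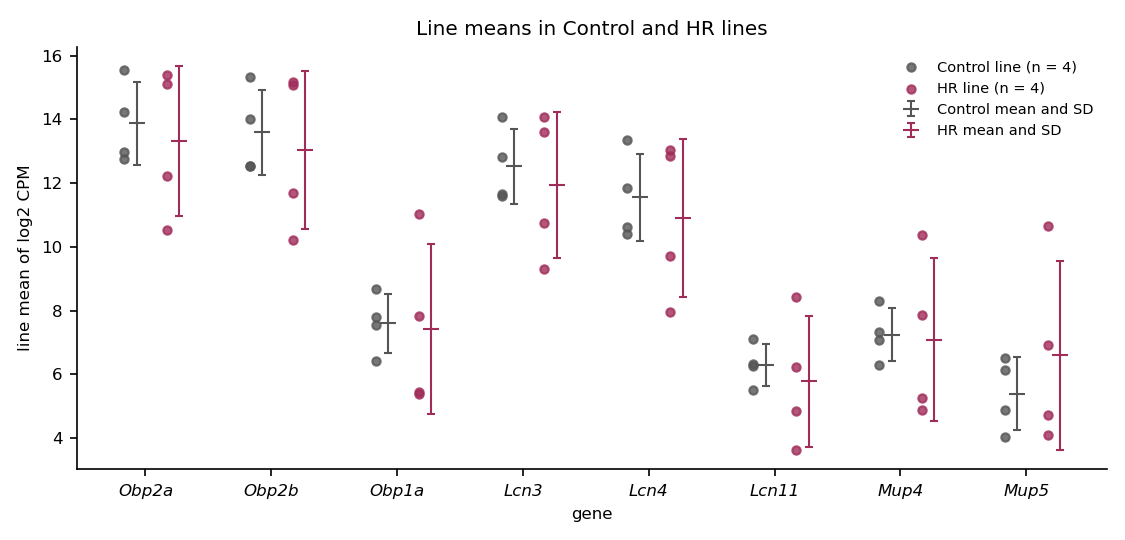
Line means of log2 CPM for the 4 Control and 4 HR lines, with the mean and SD over lines beside the points. For each of the 8 genes the HR lines overlap the Control lines. The HR lines spread more widely on this log scale, which was not set against the spread of all genes.

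Differences among the lines were tested next. In an edgeR quasi-likelihood F test of the 8 lines with sex as a covariate, the spread is that between the male and female library of a line. Here 7 of 8 members had an adjusted p under 0.05, where 25.6% of 17181 genes did. The adjusted p (Benjamini-Hochberg) was 0.00678 for Obp1a, 0.00942 for Mup5, 0.0274 for Obp2b, 0.0289 for Mup4, 0.0309 for Obp2a, 0.0333 for Lcn4 and 0.0493 for Lcn3, and 0.0529 for Lcn11. Line 5 had the highest mean for Obp2a, Obp2b, Lcn3 and Lcn4, at 53154, 43791, 19208 and 11090 CPM. Line 6 had the highest mean for Obp1a, Mup4, Mup5 and Lcn11, at 3265, 1638, 2232 and 432 CPM. Line 8 had the lowest mean CPM for all 8 members, among them Obp2a at 2387, Obp1a at 67.9, Mup4 at 47.0 and Mup5 at 17.8. By the mean of log2 CPM, line 6 was the highest for Lcn3, line 7 the lowest for Obp1a and Mup4, and line 1 the lowest for Mup5. The number of members called was 3 without line 2, 3 without line 6, 2 without line 7 and 4 without line 8, where 18.1%, 23.2%, 18.1% and 14.9% of all genes were called. Without any of the other lines it was 5 to 8 (21.6 to 26.5% of genes). DESeq2 called 5 members (41.7% of genes).

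Male and female levels were also compared over lines. Over the 8 lines, r between male and female log2 CPM was 0.68 for Obp2a, 0.69 for Obp2b, 0.74 for Obp1a, 0.61 for Lcn3, 0.68 for Lcn4, 0.49 for Lcn11, 0.58 for Mup4 and 0.65 for Mup5, against a median of 0.508 over all genes. Spearman's rho was 0.690 for Obp2a, Obp1a and Lcn4 and 0.381 to 0.667 for the others (exact permutation p = 0.0694 to 0.360). For r, the exact permutation p was 0.0486 for Obp2a, 0.0425 for Obp2b, 0.0375 for Obp1a and 0.0439 for Lcn4, unadjusted, and 27.1% of genes had one under 0.05. Adjusted over all genes, p was 0.162 to 0.411 for the members (exact permutation test), where 2.35% of genes had one under 0.05. Without the 2 lines farthest from the median, r was 0.81 to 0.90 for the chromosome 2 genes other than Lcn11, but 0.40 for Obp1a, -0.20 for Lcn11, 0.10 for Mup4 and 0.36 for Mup5, so that the relation rests on those lines for the latter.

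Females and males were compared in the same way. With linetype as the covariate, 0 of 8 members passed an adjusted p of 0.05 in edgeR's quasi-likelihood test, where 0.188% of genes did, and 2 members, Obp1a and Mup4, had an unadjusted p under 0.05, as did 8.08% of genes. DESeq2 called 0 members as well, with Obp1a at an adjusted p of 0.0588. The log2 fold change of females against males was 2.96 (SE 0.98, edgeR adjusted p = 0.374) for Obp1a and 2.00 (edgeR adjusted p = 0.605) for Mup4. With line as a block, which uses the pairing of the male and female library of a line, Obp1a was 2.57 (SE 0.46, edgeR adjusted p = 0.0445) and was the 1 member called, where 0.506% of genes were, and Mup4 was 1.66 (edgeR adjusted p = 0.205). The call of Obp1a held without line 3 or line 4 (edgeR adjusted p = 0.0327 and 0.0330), and not without line 1 (0.0682), line 2 (0.138), line 5 (0.0714), line 6 (0.0865), line 7 (0.153) or line 8 (0.138).

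Within lines, Obp1a was higher in the female library in 8 of 8 lines, by 1.42-fold in line 3 up to 22.0-fold in line 1. The mean difference was 2.55 ± 1.42 log2 CPM (SD, n = 8; exact two-sided sign-flip permutation p = 0.00781, the smallest that 8 lines allow). Of all genes, 2.53% were higher in the female library in all 8 lines and 16.3% had a sign-flip p under 0.05. Mup4 was higher in 6 of 8 lines, by 1.60 ± 1.82 log2 CPM (SD, n = 8; exact sign-flip permutation p = 0.0469), and its p was under 0.05 only without line 3 or line 4, reaching 0.0938 in the other fits that left out 1 line. For the chromosome 2 genes other than Lcn11 the mean difference was negative and within the spread of the lines, with Obp2a lower in the female library in 6 of 8 lines, at -0.77 ± 1.58 log2 CPM (SD, n = 8; exact sign-flip permutation p = 0.234), and Lcn3 at -0.78 ± 1.70 (exact sign-flip permutation p = 0.242). The ratio of Obp1a to Obp2a counts was higher in the female library in 8 of 8 lines, for example 0.236 against 0.00370 in line 8 and 0.0140 against 0.00301 in line 3. This did not set Obp1a apart, as the ratios of Mup4 and of Lcn11 to Obp2a were also higher in the female library of every line. In line 4 they were 0.00476 against 0.00342 for Mup4 and 0.00458 against 0.00378 for Lcn11. Obp2a is the divisor of each ratio, and the share of all genes with such a ratio was not computed. Male and female libraries were deposited in separate tables, and a lane held 8 libraries from both linetypes, so sex and lane may coincide, and the part of the lane in these differences was not tested.

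**Figure D5:**
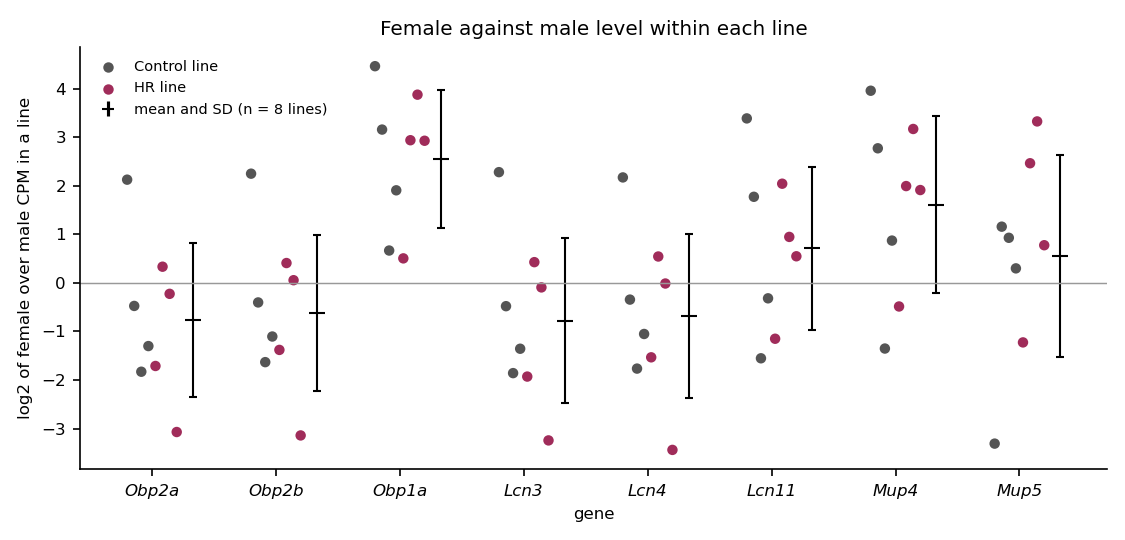
log2 of the female over the male CPM within each line (points; grey Control, magenta HR lines), with the mean and SD over 8 lines. The 8 points of Obp1a all lie above 0, at 0.50 to 4.46, whereas those of Obp2a range from -3.07 to 2.12.

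The genes whose profile over the 16 libraries was most like the members were found by Pearson's r of log2 CPM centred within sex, as a description over samples that share depth and tissue content. For Obp2a, Obp2b, Lcn3 and Lcn4 it was Gjb1, a gap junction protein gene on the X chromosome, with r of 0.990, 0.991, 0.984 and 0.990 and levels of 0.431 to 16.8 CPM. For Obp1a it was Gm14744 (r = 0.987) and for Mup4 it was Gm14743 (r = 0.971), which lie 215 and 149 kb from Obp1a. RefSeq gives Obp1f as a synonym of Gm14744. Of the 75-base words, 43.7% of those of Gm14744 and 30.7% of those of Gm14743 were unique to them, so their counts rest on part of the transcript. Lcn11 was most like Psg17, a pregnancy-specific glycoprotein gene (r = 0.931), and Mup5 was most like Crisp1, a cysteine-rich secretory protein gene (r = 0.901). Both were near the floor in some libraries, Psg17 at 0.0538 to 3.27 CPM and Crisp1 at 0.0777 to 150 CPM. With the mean of the members, the highest r were those of Slc10a5 (0.959), Psg17 (0.957), Bhlha15 (0.955), a transcription factor of secretory cells, Rasd2 (0.947) and BC006965 (0.941). Rasd2 was also low, at 0.404 to 5.84 CPM.

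The levels of gland genes were set beside that of Obp2a. Of 31 such genes chosen as secretory proteins and transcription factors of airway glands, 27 were tested, and r with Obp2a over the 16 libraries was above 0 for 26 and above 0.9 for 6 (lowest -0.38, median 0.74), whereas 48.1% of the 16499 genes that are no members had r above 0 and 0.685% above 0.9. Their summed level ran from 1615 CPM in the HR line 8 female library to 38883 CPM in the Control line 5 female library. Dmbt1, a mucosal scavenger protein, ranged from 55.1 to 4865 RPKM (r = 0.98), lactoferrin (Ltf) from 211 to 2369 RPKM (r = 0.92) and the antimicrobial lectin Reg3g from 68.7 to 1032 RPKM (r = 0.47). None of the 27 was called between linetypes or sexes by edgeR. An unadjusted p under 0.05 was found for 3 between linetypes and 5 between sexes (edgeR), where 3.3% and 8.08% of all genes had one. Among lines 14 of 27 were called, where 25.6% of all genes were. Sox10 and Creb3l1 (edgeR adjusted p = 0.00245 and 0.00263), which encode transcription factors, were among them, as well as Agr2, Sox9 and Lyz2. The part of gland content in the members' differences was not tested.

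A list of other lipocalins was examined as well. Of its 40 symbols, 34 were listed and 7 were tested, and their summed level lay between 256 and 485 CPM in all 16 libraries. Gm14744 and Gm14743, described above, were not on this list and ranged from 6.47 to 3745 and from 3.94 to 3000.0 CPM. Apolipoprotein D (Apod) ranged from 123 to 234 RPKM, Lcn2, which binds bacterial siderophores, from 10.9 to 72.9 RPKM and the retinol carrier Rbp4 from 1.59 to 5.20 RPKM, and r with Obp2a was -0.09, -0.15 and -0.01. None of the 7 was called between linetypes or sexes by edgeR. An unadjusted p under 0.05 was found for 0 between linetypes and 1 between sexes (edgeR), where 3.3% and 8.08% of all genes had one. Among lines 1 of the 7 was called, prostaglandin D synthase (Ptgds, edgeR adjusted p = 0.0317), where 25.6% of all genes were. Of 18 other Mup genes, 14 had no read in any library and the highest count was 36, for Mup6 in the HR line 6 female library. Reads with several alignments were not counted, and of the 75-base words of those 14 genes only 0 to 89.7% (median 21.5%) were found in no other gene, so a count of 0 does not show that these genes were silent.

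Markers of the tissue were checked beside these results. Omp, Gnao1 and Gnai2, which mark vomeronasal sensory neurons, summed to 2287 to 4501 CPM. They were lowest in the Control line 5 female library, whose gland genes were the highest. Trpc2, the channel that defines these neurons, was listed at 0 counts in every library but had 259 to 417 RPKM. Liver markers summed to 0.224 to 1.40 CPM, with Fga and Fgb at 0 in every library and Alb at 0 to 4 counts. Markers of sustentacular cells summed to 104 to 874 CPM, highest in the HR line 6 female library, and their part in the members' differences was not tested.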

How the data were processed

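RNA of 16 VNO pools was sequenced as single-end 75-base reads from ribosome-depleted directional libraries. Per the labels and the study's methods, the authors aligned reads with STAR 2.6.1d to GRCm38, allowing no mismatch and no multiple alignment, and made RPKM with Cufflinks; reads across a base that differs from the reference in these outbred lines were therefore lost. The deposited files hold whole-number counts per gene and RPKM, in a table per sex; the tool that made the counts is not given in the sources used here. In the male count table, 4 summary entries that name no gene stayed out of library sizes; N_noFeature was 20.2 to 22.5% of aligned reads.

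Counts were tested with edgeR 4.0.16 (quasi-likelihood, TMM, filterByExpr with a minimum count of 10, Benjamini-Hochberg over all genes tested, threshold 0.05), all 8 members passing the filter. log2 CPM used a prior count of 2 and log2 RPKM a pseudocount of 1. Exact permutation and sign-flip tests treated the line as the unit. Samples were grouped by their labels, and the replicate number is the line. Same-line male and female libraries deviated together from the group means (r = 0.321 to 0.708 across genes), so line pairs them. No library was a copy of another (chi-square per degree of freedom 31.1 to 780 over 24 same-group pairs). Nothing says that a line holds more than 1 pool per sex, so p-values measure the spread between pools.

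The members and gene lists were chosen with earlier results of these data known. Named genes are the members, the 3 genes of highest mean RPKM and up to 5 called genes of the other lipocalin and gland lists, and the genes most like the members. The fits were tested on simulated counts. Alternatives tried were DESeq2, RLE size factors, no TMM, no low-count filter, line as a block or a random effect, other pseudocounts, each sex alone and leaving out each line.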

Additional observations from a re-analysis of the deposited data

How the results depend on the processing

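No member was called between HR and Control lines under any alternative run, but the direction often turned. With limma-voom and line as a random effect, the log2 change was -0.57 for Obp2a and Obp2b, -0.16 for Obp1a, -0.64 for Lcn3, -0.71 for Lcn4, -0.49 for Lcn11 and -0.15 for Mup4. In males alone it was -0.14 for Obp2a, -0.048 for Obp2b, -0.12 for Lcn3 and Lcn11 and -0.17 for Lcn4. It was -0.013 for Obp2a and -0.040 for Lcn4 without TMM, and -0.028 and -0.038 with counts summed by line. Without 1 line in turn, it ran from -0.64 to 0.77 for Obp2a, -0.47 to 0.88 for Obp2b, -1.05 to 1.84 for Obp1a, -0.72 to 0.72 for Lcn3, -0.64 to 0.83 for Lcn4, -1.32 to 0.66 for Lcn11 and -0.87 to 1.55 for Mup4. The lowest value came without HR line 6 for each of these genes. Line means ran from -1.26 to 0.37 for Obp2a, -1.29 to 0.36 for Obp2b, -1.36 to 0.51 for Obp1a, -1.32 to 0.28 for Lcn3, -1.36 to 0.33 for Lcn4, -1.39 to 0.19 for Lcn11, -1.25 to 0.57 for Mup4 and -0.16 to 2.01 for Mup5. The cause was not tested.

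With line as a replicate block, 1 member (Obp1a, edgeR adjusted p = 0.0445) was called between the sexes instead of 0, and the block changed no other call of a member. The exact sign-flip permutation test had 2 members with p under 0.05, and 1 to 3 without 1 line in turn, Mup4 being lost without line 1, 2, 5, 6, 7 or 8. Among lines, 2 to 8 members were called without 1 line in turn, instead of 7. DESeq2 lost Obp2a, Lcn3 and Lcn4 there (adjusted p = 0.0765, 0.0978 and 0.0543) and gained Lcn11 (0.00203), and it gave Mup5 no adjusted p between linetypes, between sexes or for their interaction. With linetype means removed, 2 members instead of 4 had an exact permutation p under 0.05 between the male and female libraries of a line. With the 10 genes of most reads left out of the total, the members' reads came to 0.152% and 19.9% of it in the libraries with the lowest and highest share. Each member had at least 340 reads in every library.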
